A study of Mus musculus with 8 samples.

Results

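The comparison concerned tdTomato+ cells sorted from mouse forelimbs at E16.5 and at E14.5, with 1 library at each stage. Cells were kept when they had at least 3000 unique molecular identifiers (UMIs, each marking 1 captured transcript), at most 10% mitochondrial UMIs and fewer than 3 UMIs summed over the epithelial genes *Krt5*, *Krt14*, *Krt15*, *Epcam* and *Perp*. This rule kept 17897 cells of the 57469 barcodes in the 8 libraries of the series, 8071 of 9189 from the earlier stage and 9826 of 11716 from the later one. All embryos were C57BL/6J and labelled Hic1 CreERT2/CreERT2; Rosa26 LSL tdTomato/tdTomato, and their dams had received 7.5 mg of tamoxifen at embryonic day 10. The Cre recombinase is driven from the *Hic1* locus, so the reporter marks cells that expressed *Hic1* (a transcriptional repressor) around that time, together with their descendants, and neither group holds cells without these alleles. According to the methods, 6 forelimb pairs were pooled at E14.5, and no segment is named for them. The later library, labelled proximal, came from 6 pooled segments that hold the lower upper arm, the elbow and the upper forearm. Cells bearing blood or endothelial surface antigens were excluded in both sorts, and both libraries used the same 3′ kit. Stage and limb segment therefore cannot be told apart in this comparison. The distal library of E16.5, filtered in the same way (8229 cells kept), is given beside single values as a further sample of the later stage.

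Limb mesenchyme of this lineage gives rise to connective tissue fibroblasts, tendon cells, cartilage cells and the mural cells that wrap small vessels. In this period of development the cartilage templates, tendons and muscle bellies are already laid out, and the connective tissue between them deposits its collagen network. Fibroblasts build that network from fibrillar collagens, small proteoglycans that space the fibrils, elastic microfibrils and a basement membrane where they meet vessels and muscle.

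Kept cells had a median of 14294 UMIs at E14.5 and 17843 in the proximal library, and the sums over cells were 128351637 and 191010295 UMIs. tdTomato was at 431 counts per 1000000 UMIs (CPM) at E14.5 and at 1415 in the proximal library, and 83.6% and 99.1% of cells had at least 3 of its UMIs at their full depth, while 68.8% and 95.6% had at least 1 at 3000 UMIs per cell, beside 23.6% and 91.5% of the epithelial cells described below. *Hic1* was at 27.4 and 25.5 CPM. The mesenchymal receptor gene *Pdgfra* was at 165 and 149 CPM, and *Prrx1*, a limb mesenchyme transcription factor, at 304 and 235. Sex-linked genes differed as well, with *Xist* at 523 and 369.8 CPM, *Ddx3y* at 43.7 and 60.2 and *Eif2s3y* at 25.5 and 42.7. The part of embryo sex in the results was not tested. No immune marker and no marker of muscle precursors reached 10 CPM in either library, and immune markers summed to 4.64 and 3.07 CPM. The 12 epithelial markers together were at 48.6 and 88.8 CPM in the cells that passed the epithelial limit. The 9 erythroid genes together were at 0.841 and 114 CPM and the 17 muscle fibre genes at 25.5 and 135 CPM, and 0.124% and 3.36% of cells had 3 or more muscle fibre UMIs when every cell was thinned to 3000 UMIs. The part of these other cell types in the results was not tested, except where a value without them is given. The epithelial limit removed 310 cells (3.7%) at E14.5 and 1283 (11.5%) from the later library, where 740 cells lay just inside it with 2 such UMIs and 194 just outside with 3 (259 and 97 at E14.5). At the UMI limit 15 and 17 kept cells had 3000 to 3099 UMIs and 13 and 16 cells 2900 to 2999. In the kept cells 20 cell barcodes occurred in both libraries.

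For the comparison, UMIs were summed over the kept cells of each library and expressed in CPM, and a difference is given as the log2 ratio of CPM + 1, the proximal library over E14.5. With 1 library per group there is no replicate error and no test. Intervals are exact 95% intervals that cover counting error only. Of 8554 genes at 10 CPM or more in either library, 424 (4.96%) were at least 2-fold higher in the proximal library and 416 (4.86%) at least 2-fold lower. The median gene lay at -0.16, so that centring the ratios on the median of genes expressed in both libraries (-0.14) turned these counts into 531 higher and 277 lower. The share of higher genes among those past 2-fold was then 65.7% instead of nearly equal parts. Of the 232 list members past 2-fold, 76 were under it in at least 1 of 16 alternative settings. A gene under 10 CPM in one library enters only through the other, where it is high, and of the 7418 genes at 10 CPM or more in both, 230 (3.10%) were higher and 220 (2.97%) lower. At least 4-fold differences were seen for 102 genes in the upward and 46 in the downward direction. The shares of 4.96% and 4.86% and the median of -0.16 are the background for every whole-library list count below.

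**Figure D1:**
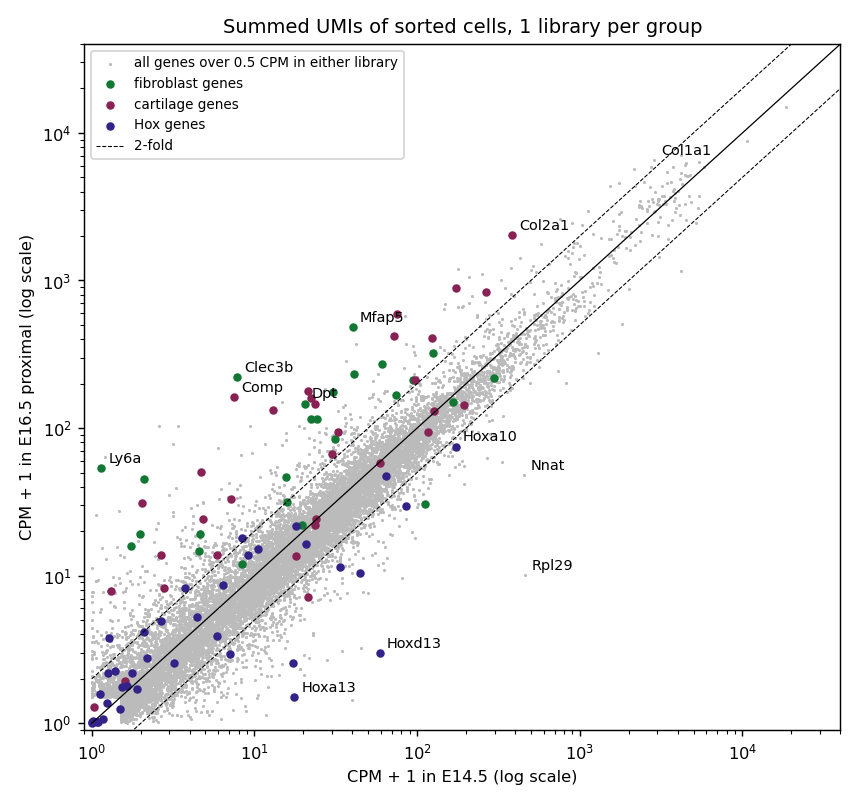
Summed UMIs of each gene at E14.5 (x axis) and in the proximal library (y axis), both as CPM + 1 on log scales, with 1 point per gene, fibroblast genes in green, cartilage genes in wine red and Hox genes in blue. Fibroblast genes lie mostly above the upper dashed 2-fold line and the high-numbered Hox genes below the lower one, while *Col1a1*, at 2839.9 and 6532 CPM, lies near the top of the range.

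Among genes at 50 CPM or more, haemoglobin genes aside (*Hbb-bs* was at 0.203 and 62.9 CPM), the highest ratio was that of *Ly6a*, which encodes the surface antigen Sca-1 used to sort adult mesenchymal progenitors. It had 19 UMIs at E14.5 (0.148 CPM, 0.0891 to 0.231) and 10002 in the proximal library (52.4 CPM, 51.3 to 53.4), a ratio of 354 (226 to 588). *Col5a3*, a chain of the collagen that starts fibril assembly, was at 2.37 and 102 CPM (ratio 43.2, 38.6 to 48.5). *Clec3b*, which encodes the plasminogen-binding protein tetranectin, was at 6.82 and 219.6 CPM (ratio 32.2, 30.1 to 34.5). *Tnxb*, the gene of a matrix glycoprotein that organises collagen fibrils, was at 2.14 and 76.5 CPM (ratio 35.7, 31.7 to 40.4). These 4 genes were also high in the distal library, at 36.9, 96.7, 181 and 67.2 CPM.

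Cartilage genes among the first 12 had lower values in the distal than in the proximal library. *Comp*, a cartilage and tendon matrix gene, was at 6.49 CPM at E14.5, 161 in the proximal library and 54.1 in the distal library. *Epyc*, a small proteoglycan of growing cartilage, was at 12.1, 131 and 10.8 CPM, so that only the proximal value stood apart. The gene listed as *3110079O15Rik* was at 1.61, 103 and 12 CPM. Without the cartilage marker cells described below the log2 ratios of *Comp* and *Epyc* were 0.96 and 0.98. *Ndufa4l2*, which encodes a mitochondrial protein found in pericytes, was at 4.95, 72.0 and 95.7 CPM, and in the proximal library it was detected in 13% of kept and 62.2% of epithelial cells at 3000 UMIs. Its log2 ratio was 3.62, and 5.18 with epithelial cells kept. The growth regulator gene *Nov* was at 8.42, 102 and 132. *AY036118* and *Gm10709*, annotated as a long intergenic non-coding RNA and a processed pseudogene, were at 13.8 and 41.0 CPM at E14.5. They were at 149 and 369.8 CPM in the proximal library and at 471 and 723 in the distal library. *AY036118* overlaps an exon of another gene on its strand, and other loci may share the reads of both entries. At 3000 UMIs *AY036118* was seen in 4.10% and 23.8% of kept and 15.3% and 24.5% of epithelial cells, and *Gm10709* in 11.9% and 67.0% of kept and 8.33% and 69.2% of epithelial cells, so both were seen about as often in epithelial as in kept cells of the proximal library.

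**Figure D2:**
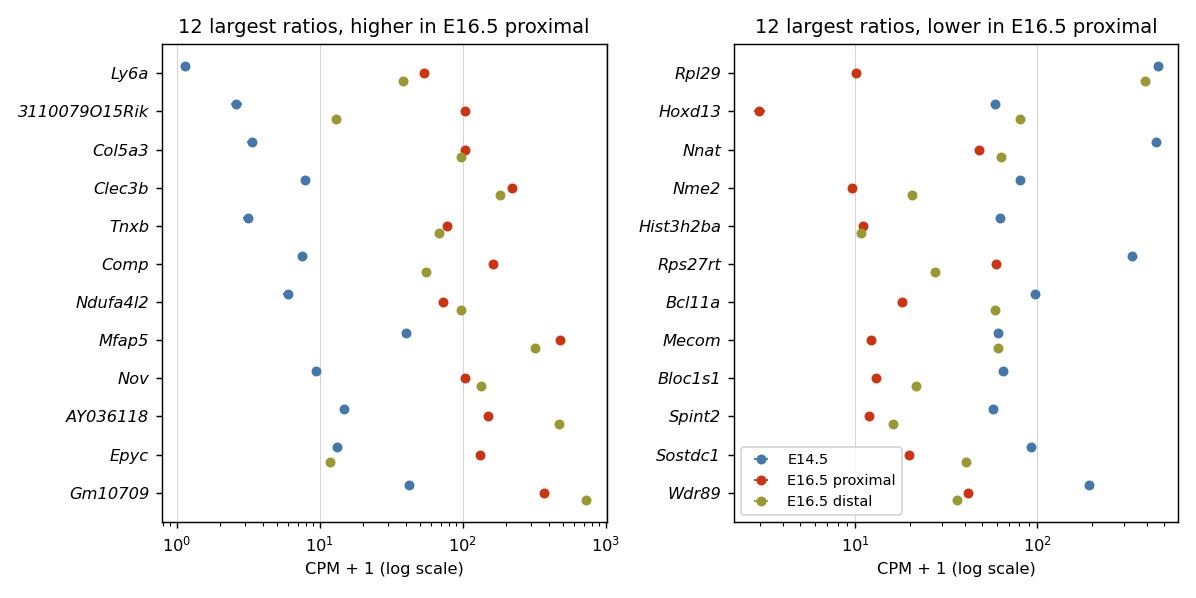
The 12 most different genes each way among those at 50 CPM or more, haemoglobin, mitochondrial, sex-linked and transgene sequences aside, with CPM + 1 on a log scale in 3 single libraries and exact Poisson 95% intervals as bars (mostly narrower than the points). *Epyc* and *3110079O15Rik* in the distal library lie far below the proximal value, and *Rpl29* and *Hoxd13* in the distal library lie near or above the E14.5 value.

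The sequences before the start of 3 of these genes are shown because they are among the most different genes, have 1 RefSeq promoter entry each and lie clear of annotated exons. RefSeq entries (GRCm38.p6) were found for 4 of the 12 highest and 9 of the 12 lowest genes. Each run below holds the 250 bases upstream of the annotated start, 5′ to 3′ on the gene's strand, with GGGCGG on either strand and TATAAA on the printed strand in capitals. They are *Col5a3* at chr9:20815068-20815317 on the minus strand, *Tnxb* at chr17:34670285-34670534 on the plus strand and *Hoxd13* at chr2:74667975-74668224 on the plus strand.
Col5a3: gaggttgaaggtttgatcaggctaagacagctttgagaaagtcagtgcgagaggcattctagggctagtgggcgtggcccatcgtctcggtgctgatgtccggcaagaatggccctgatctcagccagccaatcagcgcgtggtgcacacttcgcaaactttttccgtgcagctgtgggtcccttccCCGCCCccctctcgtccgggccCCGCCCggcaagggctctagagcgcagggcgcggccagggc
Tnxb: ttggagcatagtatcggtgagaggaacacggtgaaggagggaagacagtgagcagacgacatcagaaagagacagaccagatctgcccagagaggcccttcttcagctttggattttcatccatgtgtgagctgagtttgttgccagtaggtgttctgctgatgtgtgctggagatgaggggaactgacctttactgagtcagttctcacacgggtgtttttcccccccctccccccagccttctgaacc
Hoxd13: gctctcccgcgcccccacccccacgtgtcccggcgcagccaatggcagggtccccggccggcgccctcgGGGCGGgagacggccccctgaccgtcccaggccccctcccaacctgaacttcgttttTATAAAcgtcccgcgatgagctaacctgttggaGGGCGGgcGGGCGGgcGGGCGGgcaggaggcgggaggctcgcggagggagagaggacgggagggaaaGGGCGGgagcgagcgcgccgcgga
Among 32851 upstream windows of this length, 32.7% held GGGCGG on either strand and 12.4% held TATAAA on either strand. *Col5a3* had 2 matches to GGGCGG, *Tnxb* 0 and *Hoxd13* 5. TATAAA occurred only in the *Hoxd13* window, 124 bases before the start, where a match on the other strand overlaps it. The windows held 17, 4 and 31 CpG dinucleotides respectively, beside a median of 6 over all windows.

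Fibroblast genes were mostly higher in the proximal library. In sums over a library, fewer cells of a type and less RNA per cell cannot be told apart. All 25 listed genes were compared, 20 were at least 2-fold higher in the proximal library and 1 was lower, and their median log2 ratio was 2.06, beside 4.96% higher, 4.86% lower and a median of -0.16 over all genes compared. In these same data the paper used *Ly6a*, *Fap*, *Fbn1*, *Cd34*, *Dpt*, *C1qtnf3*, *Mfap5* and *Clec3b* to mark fibroblasts or fascia. According to the paper, fibroblasts marked by *Ly6a* and *Cd34* appear at about E16.5, and *Fbln1* and *Penk* were enriched in a fibroblast branch. It used *Hmcn1* to mark an intermediate progenitor cluster. The count was therefore partly fixed by the choice of the list and is no independent support. *Mfap5*, which encodes a microfibril protein, was the most abundant in the proximal library, with 39.1 CPM at E14.5 (38.1 to 40.2) and 480.0 in the proximal library (477 to 483). *Dpt*, the gene of a matrix protein shared by fibroblasts of many tissues, was at 19.4 and 145 CPM. *Pi16* and *Dpp4*, which mark a stem-like fibroblast state in adult tissues, were at 0.732 and 14.9 CPM and at 0.982 and 18.3 CPM. The surface antigen gene *Cd34* was at 29.6 and 174 CPM. *Entpd2*, which encodes an ectonucleotidase, was at 1.11 and 44.2 CPM but only 8.87 in the distal library, and it overlaps exons of *Npdc1* on its strand. *Hmcn1*, a large matrix gene, was the exception, with 111 CPM at E14.5, 29.6 in the proximal library and 120.1 in the distal library. *Pdgfra*, *Fbln1*, *Dkk3* and *Col15a1* lay within 2-fold. The median of the list ran from 1.43 with a pseudocount of 5 CPM to 2.20 after centring on the median gene, and was 2.16 without cells bearing markers of 10 other cell types. Of the 17 members at 10 CPM or more in both libraries, 13 were higher and 1 lower, with a median of 1.44.

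These differences were accompanied by differences in the share of cells in which the transcripts were seen. At 3000 UMIs per cell, *Clec3b* was detected in 1.57% of cells at E14.5 (1.31 to 1.87) and in 29.6% in the proximal library (28.7 to 30.5), and without thinning in 5.44% and 50.3%. *Mfap5* was detected in 7.09% and 39.5% of thinned cells, *Col5a3* in 0.743% and 19.4%, *Tnxb* in 0.533% and 15.8%, and *Dpt* in 3.92% and 19.7%. As a background, epithelial cells of the same libraries (20 or more UMIs of the epithelial genes) had *Clec3b* in 0% and 2.83%, *Mfap5* in 4.17% and 5.0% and *Dpt* in 1.39% and 2.17% at the same depth. There were 72 and 920 such epithelial cells, with medians of 23778 and 38288 UMIs before thinning. A share of 0 of 72 cells allows, at 3 counts of the total, a share of up to 4.17%. *Ly6a* was seen in 0.0372% and 5.53% of kept cells, beside 1.39% and 1.41% of epithelial cells. *Dpp4* was seen in 0.248% and 3.86% of kept cells and in 1.39% and 8.91% of epithelial cells, so no expression is read from its share.

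The collagen genes, more abundant than the fibroblast list, were also mostly higher. The 20 fibrillar and associated collagen genes found of 21 listed summed to 8548 CPM at E14.5 and 22037 in the proximal library (25010 in the distal library), and 12 of 18 compared were at least 2-fold higher and 2 lower, with a median of 1.32. *Col1a1* and *Col1a2*, which encode the chains of type I collagen, were at 2839.9 and 6532 CPM and at 1746 and 4549.7 CPM. *Col3a1* was at 2157 and 5685 CPM. Chains of type VI collagen, a beaded network around cells, were higher, with *Col6a1* at 251 and 1097 CPM, *Col6a2* at 189.8 and 666 and *Col6a3* at 147 and 694. *Col14a1*, which binds the surface of fibrils, was at 83.3 and 576 CPM. *Col13a1* (25.3 and 10.1 CPM) and *Col26a1* (163 and 71.6 CPM) were the 2 lower ones, and in all 6 of the 18 ratios were below 0. *Col1a1* had already been detected in 93.6% of thinned cells at E14.5 and was detected in 94.5% in the proximal library, so the share was near its ceiling in both.

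Enzymes and chaperones that process collagen differed less. Of 24 compared, 3 were at least 2-fold higher and 0 lower, with a median of 0.50 (4.96%, 4.86% and -0.16 over all genes compared). *P4ha2*, a prolyl hydroxylase subunit, was at 53.8 and 137 CPM, *Pcolce*, an enhancer of procollagen cleavage that overlaps *Fbxo24* on its strand, at 173 and 391, and *Adamts2*, a procollagen protease, at 28.7 and 61.7. With epithelial cells kept, *Pcolce* (log2 ratio 0.96) and *Adamts2* (0.88) were under 2-fold. *Serpinh1*, the collagen chaperone and the most abundant member at E14.5, was at 2180.4 CPM and 1739 in the proximal library.

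Basement membrane genes had 12 of 16 compared at least 2-fold higher, 0 lower and a median of 1.33. *Col4a1* and *Col4a2*, which are transcribed head to head and encode the type IV collagen trimer, were at 84.0 and 369 CPM and at 52.5 and 209 CPM. *Nid1*, which links laminin to type IV collagen, was at 56.2 and 229.8 CPM, and the laminin gene *Lama2* at 6.78 and 37.5. *Sparc*, a collagen-binding protein gene, was at 1129 and 2946 CPM. *Lamb1* and *Agrn* were among the 4 members within 2-fold.

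Among small leucine-rich proteoglycans, which bind fibrils and set their spacing, 6 of 11 compared were at least 2-fold higher and 0 lower, with a median of 1.39. *Dcn* was at 897 and 2447 CPM and *Aspn* at 178 and 658. *Lum*, *Bgn* and *Ogn* stayed under 2-fold, and *Kera*, a gene of tendon and cornea, was at 133 and 70.1 CPM. Without cells bearing markers of 10 other cell types the median of the list was 0.79, and of 8 members at 10 CPM or more in both libraries 3 were higher. Matricellular genes split. Of 18 compared, 10 were at least 2-fold higher and 4 lower, with a median of 1.36, but 6 of the 10 were under 10 CPM at E14.5, and the 12 members over that minimum in both libraries had a median of 0.24. *Postn* (379 and 1218 CPM), *Sparcl1* (26.2 and 182) and *Thbs2* (52.9 and 169) were higher, while *Tnc* (68.6 and 28.2), *Tgfbi* (108 and 42.2), *Cyr61* (131 and 58.4) and *Ctgf* (24.8 and 11.7) were lower in the proximal library. The last 4 were at 88.0, 114, 122 and 39.6 CPM in the distal library, where none was 2-fold below E14.5. *Ctgf* was under 2-fold in 8 of 16 alternative settings, and *Cyr61* without cells of 10 marker lists (-0.85).

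Elastic fibre and microfibril genes were divided between *Mfap5*, *Emilin2* (19.2 and 98.8 CPM), *Fbn1* (60.1 and 270.0) and 3 others past 2-fold and 13 genes within it, with a median of 0.18 that changed sign under 1 alternative (4 of 17 higher for members at 10 CPM or more in both libraries). *Fbn2* (372 and 389 CPM) and *Mfap2* (1002 and 1047) were nearly level, so that *Fbn1* and *Fbn2*, the microfibril backbone genes, differed in behaviour. Over all genes compared 4.96% were higher and 4.86% lower. Of the 16 hyaluronan and large proteoglycan genes at 10 CPM or more in both libraries, 3 were higher. Of all 18 compared from this list, 4 were higher. These were the synthase gene *Has1* (0.429 and 14.6 CPM), the hyaluronan receptor gene *Cd44* (17.9 and 103), *Hapln1* (21.4 and 159) and *Acan* (22.6 and 145), the last pair being markers of the cartilage cells below, without which and other marker cells they were at 0.26 and 0.54 (log2). The matrix proteases and inhibitors had 8 of 26 higher, among them *Mmp23* (11.5 and 50.8 CPM) and *Timp1* (21.0 and 49.8, with a log2 ratio of 0.98 without cartilage marker cells), and 1 lower, *Mmp11* (76.6 and 20.7). Of the 8 higher members 5 were under 10 CPM at E14.5, and of the 19 over that minimum in both libraries 3 were higher and 1 lower.

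**Figure D3:**
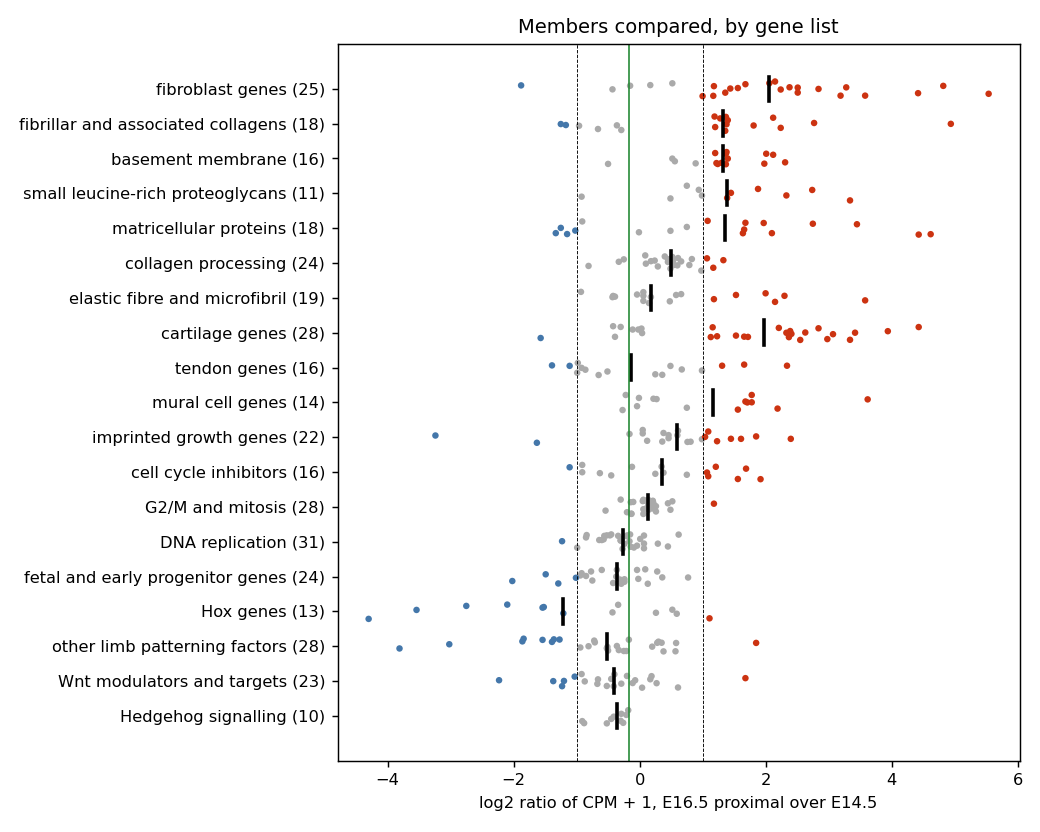
Log2 ratios of CPM + 1, proximal over E14.5, for the members of 19 gene lists, with the number compared in parentheses, 1 point per gene and 1 library per stage. Black bars mark list medians, the green line the median of all genes compared (-0.16) and dashed lines 2-fold; matrix and fibroblast lists lie to the right, Hox genes to the left, and mitotic genes near the green line.

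Cartilage genes were higher over the whole library, with 20 of 28 compared at least 2-fold higher, 1 lower and a median of 1.97 (13 of 20 higher and a median of 1.59 for members at 10 CPM or more in both libraries). *Col2a1*, the main cartilage collagen gene, was at 380.5 and 2026 CPM and *Matn1* at 74.3 and 592, against 481 and 33.9 CPM in the distal library. The share of cells past a limit on the sum of 7 cartilage markers differed little, although shares for some single markers differed more. Cells with 3 or more UMIs of 7 cartilage markers, counted at 3000 UMIs per cell, made up 11.9% at E14.5 (11.2 to 12.7) and 12.5% in the proximal library (11.9 to 13.2), and 7.81% in the distal library. At the limit itself, 189 and 90 cells had exactly 3 such UMIs, and 440 and 340 further cells had 2.

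Within these cells, 963 at E14.5 and 1229 in the proximal library, the genes of the list that did not enter the marker count were compared separately. Inside the marker cells 23 of the 25 such genes reached 10 CPM in either library, of which 15 were at least 2-fold higher in the proximal library and 1 lower, beside 5.0% and 6.70% of all genes compared in these cells. Of the 21 at 10 CPM or more in both libraries, 13 were higher and 1 lower (3.35% and 4.21% of all genes). In the other cells 7 were compared, of which 1 was higher and 3 were lower (4.75% and 5.14% of all genes). *Comp* was at 41.8 and 1295 CPM inside the marker cells and at 1.83 and 4.52 CPM outside. *Ucma*, a matrix protein gene of young cartilage, was at 4.61 and 245 CPM inside, and *Epyc* at 71.8 and 1018. *Matn3* was at 28.9 and 398 CPM inside, *Col11a2* at 142 and 1415, and *Col10a1*, which marks hypertrophic cartilage, at 2.34 and 55.7. The gene *3110079O15Rik* followed the same course, with 13.6 and 846 CPM inside and 0.0265 and 1.02 outside. Inside the marker cells of the distal library *Comp* was at 495 CPM, *Ucma* at 151, *Matn3* at 255 and *3110079O15Rik* at 153. *Epyc* (47.4 CPM) and *Col10a1* (0.340) were below their E14.5 values there.

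The transcription factor genes *Sox9*, *Sox5* and *Sox6*, which direct cartilage formation, did not share the difference. *Foxa3*, another transcription factor gene of the list, did, with 13.6 and 104 CPM inside the marker cells. *Sox9* was at 579 and 836 CPM inside the marker cells, *Sox5* at 126 and 152 and *Sox6* at 86.5 and 88.9. Outside them *Sox9* was at 65.8 and 32.3 CPM, *Sox5* at 8.96 and 2.83, and *Sox6* at 7.69 and 2.20. *Matn4* (1374 and 1129 CPM) and *Mia* (405 and 463) were also nearly level inside but at 35.9 and 7.34 and at 12.4 and 1.39 CPM outside, and *Otor* was lower in the proximal library, with 103 and 32.4 CPM. When the marker cells were left out, which also removes most UMIs of the 7 markers (*Col2a1* and *Matn1* among them), the median of the cartilage list was -0.50.

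**Figure D4:**
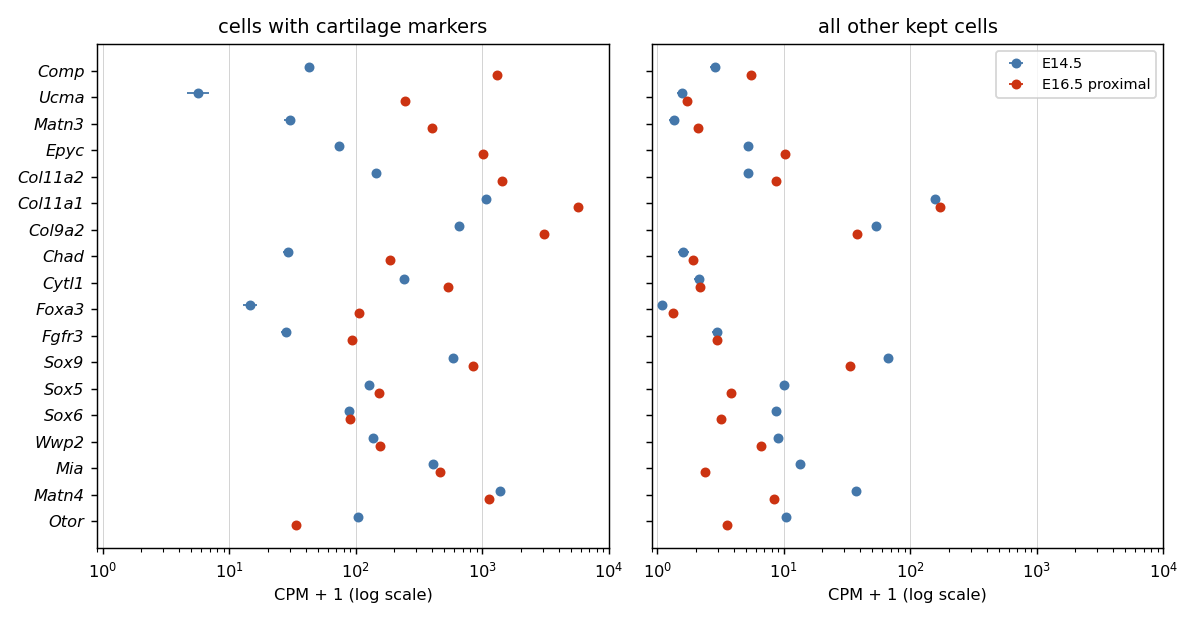
CPM + 1 (log scale) of cartilage genes that did not define the marker cells, in cells with 3 or more cartilage marker UMIs (left) and in all other kept cells (right), with 1 library per stage and exact Poisson 95% intervals. Inside the marker cells matrix genes such as *Comp* (41.8 and 1295 CPM) lie apart, while *Sox5*, *Sox6* and *Wwp2* lie close together.

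Tendon genes showed no common direction, with 3 of 16 at least 2-fold higher, 2 lower and a median of -0.13. Over all genes compared 4.96% were higher and 4.86% lower, with a median of -0.16. Over the alternatives the median ran from -0.47 to 0.58, and it was 0.01 after centring on the median gene. The lower members were the transcription factor genes *Six2* (32.5 and 11.7 CPM) and *Mkx* (24.5 and 10.8), and *Mkx* was under 2-fold in 4 of 16 alternative settings. *Scx*, the tendon lineage factor, was at 116 and 57.7 CPM, which is 2.01-fold lower by CPM and -0.99 on the log2 scale of CPM + 1, just under the limit. *Tnmd*, a gene of differentiated tendon cells, lay within 2-fold (221 and 351 CPM). The higher members were *Klf2* (208 and 1055 CPM), *Klf4* (233 and 579) and *Thbs2*, which are expressed well beyond tendon. Cells with 3 or more tendon marker UMIs made up 16.6% and 16.3%. Joint genes had 0 of 8 higher and 1 lower, the transcription factor gene *Erg* (10.4 and 3.37 CPM), which was at -0.88 with a pseudocount of 5 CPM. *Erg* was compared only through the E14.5 library. Of the 7 joint genes at 10 CPM or more in both libraries, 0 were higher and 0 lower. Of the bone genes 8 were compared, 2 were higher, *Spp1* (1.86 and 11.2 CPM) and *Runx1* (12.2 and 36.6), and *Runx2*, the master regulator of bone, was at 12.3 and 9.61. *Spp1* was at 0.97 (log2) in cells with 10000 to 25000 UMIs. Of the 5 bone genes at 10 CPM or more in both libraries, 1 was higher and 0 lower.

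Mural cell genes had 7 of 14 at least 2-fold higher and 0 lower, with a median of 1.16. Of the 7, 5 were under 10 CPM at E14.5, and the 9 members over that minimum in both libraries had 2 higher and a median of 0.22. At E14.5, in the proximal and in the distal library, the pericyte genes *Rgs5* (6.45, 23.4 and 25.0 CPM) and *Cspg4* (12.1, 40.8 and 54.6) were high in both later segments, whereas *Kcnj8* (5.11, 19.9 and 5.33) and *Abcc9* (3.98, 16.2 and 7.10) stood apart in the proximal one. *Acta2* (29.6, 89.5 and 63.4) and *Des* (6.17, 31.7 and 13.2) were also in this group. Cells with 3 or more pericyte marker UMIs made up 0.359% at E14.5 (0.241 to 0.516) and 2.17% in the proximal library (1.89 to 2.48), where 18 of 29 and 77 of 213 such cells had exactly 3 UMIs and 81 and 286 further cells had 2. The share was 1.86% in the distal library. The markers differed, with *Cspg4* in 3.06% and 9.67% of thinned cells at E14.5 and in the proximal library. *Kcnj8* was in 1.09% and 4.17%, *Abcc9* in 0.966% and 3.62%, *Rgs5* in 1.09% and 1.93% and *Notch3* in 5.34% and 4.53%. *Notch3*, *Mcam* and *Pdgfrb* were within 2-fold. *Des* and *Acta2* are also muscle genes. Without cells of 10 marker lists, muscle fibre and pericyte cells among them, *Des* had a log2 ratio of 2.16, *Acta2* of 1.05 and the list a median of 0.92, and *Rgs5*, itself a marker of the removed cells, was at -0.36. *Kcnj8*, *Abcc9* and *Cspg4*, markers as well, were past 2-fold in all 16 alternative settings, and the median of the list was 1.69 after thinning to 3000 UMIs.

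Hox genes, which assign position along the limb, divided by paralogue number. Of 39 listed, 13 were compared, 7 were at least 2-fold lower in the proximal library and 1 was higher, with a median of -1.21. All 7 lower genes belonged to the 5′ ends of the *Hoxa* and *Hoxd* clusters, whose genes pattern successive limb segments from the upper arm to the hand. *Hoxd13* was at 57.8 CPM at E14.5 (56.5 to 59.1), 1.98 in the proximal library (1.78 to 2.19) and 79.3 in the distal library. *Hoxa13* was at 16.5, 0.508 and 31.6 CPM and *Hoxd12* at 16.2, 1.57 and 10.9. *Hoxd11* (84.3, 28.8 and 81.8 CPM) and *Hoxa11* (32.4, 10.5 and 45.0) had intermediate values. *Hoxa10* and *Hoxd10* were lower in both E16.5 segments than at E14.5, with 172, 73.8 and 81.8 CPM and with 43.8, 9.43 and 18.1 CPM. *Hoxa9* and *Hoxd9* were within 2-fold, and *Hoxb2* was at 7.36, 17.1 and 2.23 CPM, a ratio under 2-fold (0.84) with a pseudocount of 5 CPM. The proximal segments end in the upper forearm, whereas no segment is named for the E14.5 forelimbs. With genes from 1 CPM included the median of the Hox list was 0.26, since 26 of its members lie under 10 CPM. The 6 members at 10 CPM or more in both libraries had a median of -0.82, with 3 lower. At 3000 UMIs per cell *Hoxd13* was detected in 13.2% and 0.427% of cells.

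Other patterning factors had 8 of 28 at least 2-fold lower, 1 higher and a median of -0.51. Of the 8, 5 were under 10 CPM in the proximal library, and of the 22 members over that minimum in both libraries 3 were lower and 1 higher, with a median of -0.29 beside -0.14 over all such genes. *Msx1*, a factor of undifferentiated distal mesenchyme, was at 44.3 CPM at E14.5, 2.23 in the proximal library and 16.4 in the distal library, and *Lhx9* at 18.0, 1.34 and 6.80 CPM. *Tbx5*, the forelimb identity gene, was at 70.9, 23.7 and 61.9 CPM and *Hand2*, a posterior limb gene, at 75.4, 28.8 and 64.2. *Mecom*, which encodes a zinc finger factor, was at 60.3, 11.2 and 59.6 CPM. *Shox2*, a gene of the proximal limb skeleton, was at 218 and 189 CPM, and *Meis2* at 24.0 and 36.2. *Plagl1*, an imprinted growth regulator, was the member that was higher, with 217 and 784 CPM.

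**Figure D5:**
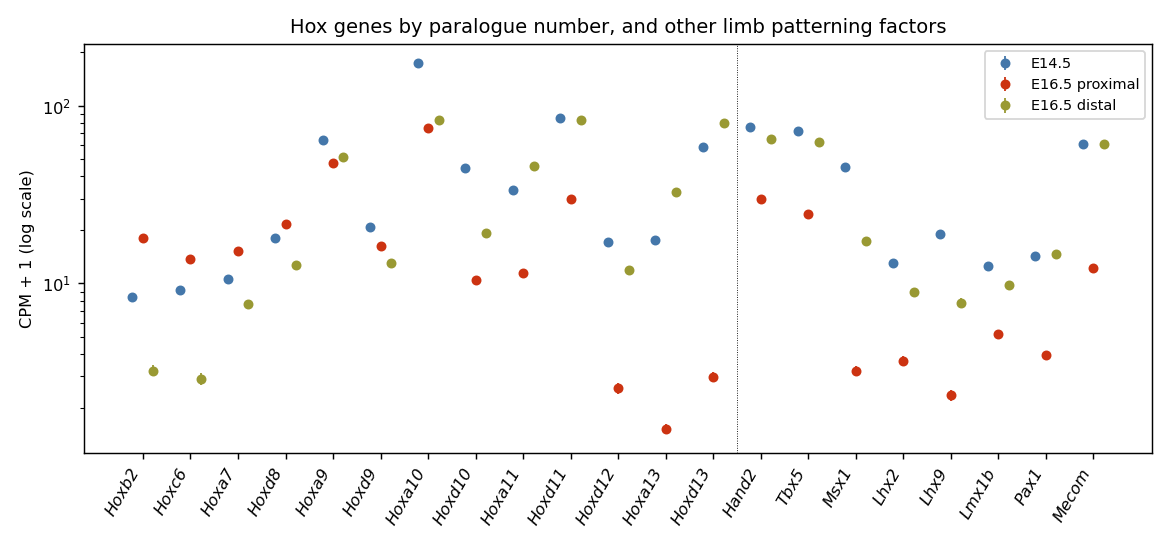
CPM + 1 (log scale) of Hox genes in order of paralogue number (left of the dotted line) and of other patterning factors (right), in 3 single libraries with exact Poisson 95% intervals. *Hoxd11*, *Hoxa13*, *Hoxd13*, *Tbx5*, *Hand2* and *Mecom* are low in the proximal library alone, while *Hoxa10*, *Hoxd10*, *Msx1* and *Lhx9* are below the E14.5 value in both E16.5 segments.

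Genes of early progenitors had 4 of 24 at least 2-fold lower and 0 higher, with a median of -0.36. Over all genes compared 4.86% were lower and 4.96% higher, with a median of -0.16. *Hmga2*, a chromatin protein gene of embryonic growth, was at 62.6 and 14.6 CPM, *Sox11* at 334 and 119, *Sox4* at 494 and 202 and *Osr1*, which marks connective tissue progenitors of the limb, at 111 and 54.4, which was under 2-fold in 9 of 16 alternative settings. The RNA-binding protein gene *Igf2bp3* (65.8 and 53.0 CPM) stayed within 2-fold. *Nnat*, an imprinted gene, had the next lowest ratio after *Rpl29* and *Hoxd13* among genes at 50 CPM or more, with 450.0 CPM at E14.5, 46.8 in the proximal library and 62.3 in the distal library, and the share of thinned cells with its transcript was 58.0% and 10.5% (15.3% and 1.85% of epithelial cells). *Bcl11a*, a transcriptional repressor gene, was at 96.5, 17.1 and 58.0 CPM and was seen in 23.7% and 4.99% of kept and 25% and 5.76% of epithelial cells, and *Sostdc1*, a secreted antagonist of BMP and Wnt, at 91.9, 18.8 and 39.5.

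Proliferation genes were mostly within 2-fold. Of the G2/M ratios 21 were above 0 and of the DNA replication ratios 24 were below 0, beside 37.0% above and 63.0% below over all genes compared. Of 28 G2/M genes 1 was at least 2-fold higher and 0 lower (median 0.14), and of 31 DNA replication genes 0 were higher and 1 lower (median -0.27). *Mki67* was at 50.9 and 73.4 CPM, *Top2a* at 154 and 170, *Pcna* at 83.3 and 41.5 and *Mcm7*, which overlaps microRNA genes on its strand, at 134 and 56.3. *Prc1*, a gene of the mitotic midzone, was the higher one at 30.2 and 69.7 CPM, but at 0.79 (log2) in cells with 10000 to 25000 UMIs. Cells with 3 or more G2/M UMIs at 3000 UMIs made up 19.1% at E14.5, 23.3% in the proximal library and 15.6% in the distal library. Cell cycle inhibitor genes had 6 of 16 higher and 1 lower, beside 4.96% and 4.86% of all genes compared. Of the 14 at 10 CPM or more in both libraries, 5 were higher and 0 lower. The list summed to 4775, 7634 and 5269 CPM at E14.5, in the proximal and in the distal library. *Cdkn1a* (p21) was at 24.1 and 93.7 CPM, but was detected in fewer kept cells (5.44% and 18.6%) than epithelial cells (22.2% and 58.9%), and *Cdkn1c* (p57) at 2743 and 5855. *Gadd45a*, a DNA damage response gene, was lower, at 18.4 and 8.01. *Cdkn1c* (0.89 with epithelial cells kept) and *Gadd45a* (-0.85 with a pseudocount of 5 CPM) had ratios under 2-fold in at least 1 alternative.

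Imprinted growth genes had 7 of 22 at least 2-fold higher and 2 lower, with a median of 0.60, and 19 of 22 ratios were above 0, beside 37.0% of all genes compared. Of the 20 members at 10 CPM or more in both libraries, 7 were higher and 1 lower. *Igf2*, the fetal growth factor gene, was at 576 and 1753 CPM, *Peg3* at 502 and 1183, *Zim1* at 14.7 and 81.8 and the growth factor scavenger gene *Igf2r* at 101 and 210.3. *Dlk1*, an inhibitor of fat cell formation, was at 2189 and 4344 CPM and *Meg3* at 3189 and 4376. *Phlda2* (16.8 and 4.75 CPM) and *Nnat* were lower. *Igf2r* was at 0.86 (log2) with epithelial cells kept. In the insulin-like growth factor list, which shares *Igf2* and *Igf2r*, 5 of 16 were higher, *Igf1* (259.8 and 714 CPM, 319.8 in the distal library) and *Igfbp6* (21.3 and 115) among them, and 1 was lower, the protease gene *Pappa* (22.6 and 8.67), while the receptor gene *Igf1r* was at 91.2 and 64.5. Of the 14 members of this list at 10 CPM or more in both libraries, 4 were higher and 0 lower.

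Medians of the signalling lists lay on both sides of the median gene (-0.16). No member of the Hedgehog list was past 2-fold, and all 10 ratios were below 0 (median -0.36), as were 63.0% of all genes compared, with the target gene *Gli1* at 15.1 and 12.9 CPM and the co-receptor gene *Gas1* at 1079 and 576. Of the Wnt ligands, *Wnt11* (42.4 and 13.6 CPM) and *Wnt5a* (145 and 65.2) were lower and *Wnt2* (10.6 and 33.3) higher among 5 compared. Of 23 Wnt modulators and targets 5 were lower and 1 higher (5 and 0 of the 21 at 10 CPM or more in both libraries). The target gene *Axin2* was at 30.4 and 12.4 CPM, the antagonist gene *Dkk2* at 158 and 68.2, the enhancer gene *Rspo1* at 32.5 and 12 and the receptor gene *Fzd2* at 445 and 218, and *Sfrp4* was the higher one with 3.55 and 13.6. *Axin2* was at 31.5 CPM in the distal library. *Fzd2* (-0.88) and *Wnt5a* (-0.99) were under 2-fold after centring on the median gene, and *Rspo1* (-0.95) after thinning to 3000 UMIs.

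For the counts in the signalling lists, the shares over all genes compared were 4.96% higher and 4.86% lower. In the BMP list 2 of 20 were at least 2-fold higher and 2 lower (1 and 1 of the 15 at 10 CPM or more in both libraries). The inhibitory *Smad6* was at 23.5 and 5.90 CPM, *Bmp7* at 33.5 and 16.2, and the antagonist gene *Fst* at 71.0 and 152. *Bmp7* was under 2-fold in 9 of 16 alternative settings and *Fst* in 2. Of 16 TGF-beta genes 1 was higher and 1 lower (0 and 1 of the 13 at 10 CPM or more in both libraries). The ligand genes *Tgfb2* (146 and 73.5 CPM) and *Tgfb3* (45.6 and 28.8) lay within 2-fold while the receptor gene *Tgfbr2* was at 36.6 and 59.0. Of 18 FGF genes 1 was higher and 2 were lower (0 and 2 of the 14 at 10 CPM or more in both libraries). The lower ones were the feedback inhibitor gene *Spry2* (63.6 and 31.2 CPM) and *Flrt3* (39.4 and 15.6). *Spry2* was under 2-fold in 10 of 16 alternative settings and *Flrt3* with epithelial cells kept (-0.75), and the higher gene, *Fgfr3*, was at -0.00 without cartilage marker cells. In the retinoic acid list 3 of 14 were higher, with the carrier gene *Rbp4* at 23.9 and 68.3 CPM, and *Crabp2*, an intracellular retinoic acid carrier, was lower at 287 and 112. Of 7 Notch genes 1 was lower, *Rfng* (20 and 6.71 CPM), and 0 of the 6 at 10 CPM or more in both libraries. Of 13 receptor kinase genes 2 were higher, among them the ligand gene *Kitl* (31.7 and 129 CPM), and 1 was lower, *Pdgfc* (22.3 and 6.98). Of the 12 at 10 CPM or more in both libraries, 2 were higher and 0 lower.

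Of 28 listed chemokine and cytokine genes 11 were compared, and 5 were higher and 3 lower. All 5 were under 10 CPM at E14.5 and so were compared only through the proximal library, while the 5 members over that minimum in both had a median of -1.02. The alarmin gene *Il33* was at 2.16 and 26.0 CPM and the chemokine genes *Ccl11*, *Ccl2* and *Cxcl1* at 3.35 and 13.2, at 2.60 and 19.3 and at 3.19 and 21.8. *Mdk*, a heparin-binding growth factor gene, was at 2008 and 868 CPM, *Cxcl14* at 276 and 111 and the scavenger receptor gene *Ackr3* at 48.8 and 23.6, the last under 2-fold in 6 of 16 alternative settings. Of 8 complement and coagulation genes 4 were higher (3 of the 7 at 10 CPM or more in both libraries), *Cd55*, a brake on complement, at 5.94 and 41.6 CPM. Of 16 antigen presentation and interferon genes 4 were higher and 1 lower, but 3 of the 4 were under 10 CPM at E14.5 and the lower one in the proximal library, and of the 9 over that minimum in both 1 was higher. *Lgals3*, which encodes galectin-3, was at 7.25 and 64.8 CPM with a log2 ratio of 2.99, and 5.62 when epithelial cells were kept. The leukocyte gene *Ptprc* had 3 and 5 UMIs.

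Hormone response genes included the glucocorticoid targets *Zbtb16* (0.584 and 12.4 CPM), *Fkbp5* (6.72 and 16.2) and *Klf9* (23.9 and 69.9), which were the 3 higher of 12 hormone response genes compared (the first pair only through the proximal library), while *Tsc22d3* (73.5 and 84.3) and *Per1* (15.2 and 19.1) were within 2-fold and *Dbp* was lower (23.7 and 8.46). *Fkbp5* was at 0.85 (log2) with a pseudocount of 5 CPM. Of the 9 hormone response genes at 10 CPM or more in both libraries, 1 was higher and 0 lower. For the counts in this paragraph, 4.96% of all genes compared were higher and 4.86% lower. Immediate early and heat shock genes, which also respond to tissue dissociation, had 9 of 28 higher and 1 lower. *Atf3* was at 35.3, 143 and 179 CPM in the 3 libraries (E14.5, proximal, distal) and *Junb* at 94.4, 329 and 355, while *Fos* was at 203, 181 and 400.0 and *Hspa1a* at 52.2, 36.2 and 55.0. Of the antioxidant genes 5 of 21 were higher, among them *Mt1* (22.3 and 82.0 CPM), and 1 was lower (3 and 1 of the 17 at 10 CPM or more in both libraries).

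Regulators of fat cell formation had 3 of 12 higher and 1 lower (2 and 0 of the 9 at 10 CPM or more in both libraries). Over all genes compared 4.96% were higher and 4.86% lower. The list summed to 3254, 5813 and 3633 CPM at E14.5, in the proximal and in the distal library. *Fabp4*, a fatty acid carrier of fat cells and capillary endothelium, was at 2.31 CPM at E14.5, 38.5 in the proximal library and 4.17 in the distal library, and it was seen in 0.248% and 3.35% of thinned cells. *Cebpb*, an early adipogenic factor gene, was at 96.5 and 314 CPM, *Ebf2* at 68.2 and 70.9 and *Prdm16*, a regulator of brown fat, at 10.6 and 2.29. *Fabp5*, also among the higher ones, had a log2 ratio of 1.05. It was 0.97 in cells with 10000 to 25000 UMIs and 2.72 with epithelial cells kept. The 10 endothelial markers summed to 49.5 and 44.9 CPM, 2 were compared and neither was past 2-fold, and under 10 CPM *Tek* was at 2.73 and 8.75 and *Cdh5* at 1.96 and 1.83. Cells with 3 or more endothelial UMIs numbered 17 and 24, and *Fabp4* had a log2 ratio of 4.67 without the cells of 10 marker lists. The part of endothelial cells in its level was not tested.

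Lists that concern other fibroblast classes and cell contacts were near or below the median gene. Over all genes compared 4.96% were higher and 4.86% lower. Dermal fibroblast genes had 1 of 16 higher and 3 lower (0 and 3 of the 14 at 10 CPM or more in both libraries). The list summed to 1496, 985 and 1492 CPM at E14.5, in the proximal and in the distal library. *Crabp1*, the most abundant member, was at 776 and 440.3 CPM. *Col7a1*, the anchoring fibril collagen gene, was higher at 9.26 and 31.2. Nerve sheath fibroblast genes had 4 compared and 1 lower. Guidance and neurotrophic genes had 2 of 28 higher and 5 lower, with *Sema3c* at 35.7 and 107 CPM and the ephrin gene *Efna2* at 102 and 37.2. The other members past 2-fold, *Sema3d*, *Sema6a*, *Slit2*, *Sema3f* and *Unc5c*, were under it in 5, 7, 6, 2 and 1 of 16 alternative settings. Adhesion genes had 4 of 25 higher and 4 lower (2 and 1 of the 20 at 10 CPM or more in both libraries). The integrin gene *Itgb1* was at 242 and 488 CPM and the cadherin genes *Cdh3* and *Cdh4* at 18.0 and 3.98 and at 21.2 and 8.89. *Itgb1* was under 2-fold in 4 of 16 alternative settings and *Cdh4* in 1. Cytoskeletal genes of contraction had 3 of 23 higher and 3 lower (2 and 2 of the 21 at 10 CPM or more in both libraries). *Vim* was at 2494 and 4658 CPM, *Actb* at 4838 and 3427 and *Marcksl1*, a gene of motile cells, at 737 and 243. Glycolytic and hypoxia genes had 2 of 25 higher and 0 lower, with the lactate dehydrogenase gene *Ldha* at 761 and 679 CPM. Of the higher ones, *Eno1* had a log2 ratio of 1.16, and of 0.83 without cells of 10 marker lists. *Ndrg1* was at 1.52, and at 2.24 with epithelial cells kept.

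Several of the largest decreases concerned genes whose reads other loci may share, and these are uncertain, as are the higher values of *AY036118* and *Gm10709*. Whether reads were shared was not tested. *Rpl29*, a ribosomal protein gene, was at 458 CPM at E14.5, 9.06 in the proximal library and 389.9 in the distal library. *Rps27rt* was at 330.1, 58.3 and 26.5 CPM, *Nme2* at 79.9, 8.62 and 19.6, and *Hist3h2ba* at 61.9, 10.0 and 9.82. *Nme2* and *Bloc1s1* (64.1, 12.1 and 20.6 CPM) overlap exons of *Gm20390* and *Rdh5* on their strand. *Wdr89* was at 193, 40.8 and 35.2 CPM. Epithelial cells differed between the libraries in the same direction, with *Rpl29* in 83.3% and 2.39% of them at 3000 UMIs (73.2% and 2.81% of kept cells), *Rps27rt* in 63.9% and 17.2% (62.7% and 15.8%) and *Wdr89* in 59.7% and 15% (43.9% and 11.6%). Of 86 ribosomal protein genes compared, 7 were at least 2-fold lower and 4 higher. Their median was 0.19, beside -0.16 over all genes compared, and the family took 21.8% and 24.2% of UMIs. As a whole the family was thus slightly higher, unlike the members named here. Further genes named here overlap an exon of another annotated gene on their strand, *Hoxd10* and *Hoxd11* with the same entry, and *Col3a1*, *Igf2*, *Meg3*, *Spp1*, *Mkx*, *Mia*, *Hoxa9*, *Wwp2*, *Top2a*, *Col7a1* and *Pdgfra*. *Spint2* (56.2 and 10.9 CPM), a protease inhibitor gene of epithelia, depended on the epithelial limit, with a log2 ratio of -2.27 and of -0.71 when epithelial cells were kept.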

How the data were processed

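Droplet 3′ libraries of sorted tdTomato+ forelimb cells at E14.5 and at E16.5 in a proximal and a distal segment (1 library each) were analysed, and the other 5 libraries were not used here. Per the file headers, the authors made raw UMI counts per gene and cell with Cell Ranger 3.0.2 (6.0.1 for the distal library), on a modified mm10 reference. UMIs of kept cells were summed per library and scaled to 1000000 (CPM), with a pseudocount of 1 CPM, a minimum of 10 CPM in the higher library and a limit of 2-fold. With 1 library per group no test was run, and replicate error is unknown. Shares of cells were computed after thinning to 3000 UMIs unless given at full depth, with exact binomial 95% intervals. Genes were named as the 12 largest ratios in each direction at 50 CPM or more, without haemoglobin, mitochondrial, sex-linked and added sequences, and, from each of 44 gene lists, the most abundant and up to 3 members past 2-fold in each direction, beside defining markers. A few further list members within 2-fold were named after their values were seen. Members and lists were chosen with earlier results of these data known. Overlaps of exons were taken from GENCODE vM21 (GRCm38). The gene lists hold 1065 genes, of which 709 were compared, 164 higher and 68 lower. Doublets were scored with scrublet in scanpy 1.11.5 and kept. The counting was tested on simulated Poisson counts, with some genes changed by more than the 2-fold limit. These counts held no variation between libraries beyond counting error, so the test cannot speak to replicate error. Python 3.11.15, numpy 2.4.6, scipy 1.17.1 and pandas 2.3.3 were used. Whether the embryos of a pool came from separate litters is not given in the sources used here.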

Additional observations from a re-analysis of the deposited data

Results flagged for a closer look

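Of the 12 largest ratios in each direction, 2 genes lay on opposite sides of the E14.5 value in the 2 limb segments of the later stage. *Epyc* was above E14.5 in the proximal library (3.34, log2) and slightly below it in the distal library (-0.15). *Hoxd13* was below E14.5 in the proximal library (-4.30) and above it in the distal library (0.45). Both comparisons share the E14.5 library, each rests on 1 library, and the difference was not tested.

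The sequence SSM2GFP, added to the reference by the authors, had counts although no label names it in these mice. It was at 2.25 CPM at E14.5, 1.91 in the proximal library and 3.57 in the distal library.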

How the results depend on the processing

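Under 19 alternatives the counts of genes at least 2-fold higher (424) and lower (416) stayed within 1.5 times except where the minimum, pseudocount or centre was moved. With a minimum of 1 CPM they were 677 and 736, with 50 CPM 188 and 130, and with 10 CPM in both libraries, added after seeing the data, 230 and 220. A pseudocount of 5 CPM gave 249 lower genes and centring on the median gene 277. Doublet removal by the caller's own limit was not run, because it marked 0 cells at E14.5 (282 in the proximal library). Leaving out the 8% of cells with the highest doublet score in each library, chosen after seeing the data like the limits on tdTomato UMIs, depth and ribosomal genes, gave 426 and 413. Of the 424 higher and 416 lower genes, 342 and 379 remained so with epithelial cells kept, 367 and 390 without cells of 10 marker lists, and 316 and 249 with a pseudocount of 5 CPM. Of 163 named genes past 2-fold, 43 were under it in at least 1 alternative, and 50 of 191 named genes moved over 1.5 times; the cause was not tested. Among values past 2-fold, signs turned in 7 cases for the genes named by rule and list medians, and *Rgs5*, named beside them, was at -0.36 without cells of 10 marker lists. Without cartilage marker cells *Col2a1*, itself a marker of the removed cells, was at -0.75, *Fgfr3* at -0.00 and the cartilage list at a median of -0.50, and without cells of 10 marker lists these were -0.68, -0.03 and -0.41. The Hox median was 0.26 with a minimum of 1 CPM, which adds genes under 10 CPM. Medians of 12 lists changed sign in at least 1 alternative, those of cartilage, Hox, elastic fibre, tendon, bone, G2/M, TGF-beta, FGF, Notch, receptor kinase, chemokine (-0.57 with a minimum of 50 CPM) and glycolysis genes. Fold changes of genes near 0 CPM at E14.5 depended on the pseudocount, as *Ly6a* did (3.48 to 7.72). No paired analysis was possible because each group holds 1 library.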
